A study of Mus musculus with 24 samples.

Results

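The 8 genes described here encode surface proteins with which macrophages and B cells address T cells: Cd40, Cd80, Cd83, Cd86, Cd274, Pdcd1lg2, Icosl and Icam1. They were taken by name, as the array probes whose gene symbol equals one of these 8, among 21597 gene symbols on the array. All 8 were on the array, with 12 probes between them, and all 8 had a probe well above background in both replicates of at least 1 condition. The microarrays were Agilent mouse whole genome arrays, on which total RNA of cells from C57BL/6 mice was measured in 24 channels of 12 conditions, with 2 biological replicates per condition (1 labelled with Cy5, the other with Cy3, on the same array). The 3 cell types were EPM, peritoneal macrophages elicited with thioglycollate, BMDM, macrophages grown from bone marrow with L-cell conditioned medium as source of M-CSF, and resting splenic B cells obtained by magnetic depletion of cells bearing CD43 or CD11b. Each was treated with Kdo2 lipid A (KLA), a specific agonist of Toll-like receptor 4 (TLR4), for 1 h or 12 h. The control for 1 h, called the early control below, was untreated cells in EPM and B cells and DMSO, the solvent, for 1 h in BMDM. The control for 12 h was DMSO for 12 h in all cell types. No age of the animals, and no number of animals per replicate, is given in the labels.

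CD80 and CD86 bind CD28 on T cells and deliver the costimulatory signal that accompanies antigen recognition, and both also bind the inhibitory receptor CTLA-4. ICOSL is the ligand of ICOS, and ICAM-1 is the ligand of the integrin LFA-1, whose alpha chain is encoded by Itgal. CD40 is a receptor of the TNF receptor family that is engaged by CD40L on T cells and signals through TRAF proteins. CD83 is a surface protein of activated dendritic cells and B cells. PD-L1 (Cd274) and PD-L2 (Pdcd1lg2) bind the checkpoint receptor PD-1 and restrain T cells. TLR4 signals through NF-kB and AP-1, and through IRF3 and secreted type I interferon, and bacterial lipid A is a classical inducer of costimulatory molecules on antigen-presenting cells.

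The promoters of 5 members (Icam1, Icosl, Cd80, Cd274 and Pdcd1lg2) were matched by symbol in the RefSeq sequences of build GRCm38.p6, whereas Cd40, Cd83 and Cd86 are named only. The 250 bases before the start site are printed below for Icam1 (chr9:21015690-21015939) and Icosl (chr10:78069118-78069367), which rose within 1 h of KLA in both macrophage types, and for Pdcd1lg2 (chr19:29410669-29410918) and Cd274 (chr19:29367188-29367437), whose levels were highest at 12 h of KLA in macrophages. All are on the plus strand, 5′ to 3′, and capitals mark a match to the NF-kB consensus or to its shorter form GGAANTTCC.
Icam1: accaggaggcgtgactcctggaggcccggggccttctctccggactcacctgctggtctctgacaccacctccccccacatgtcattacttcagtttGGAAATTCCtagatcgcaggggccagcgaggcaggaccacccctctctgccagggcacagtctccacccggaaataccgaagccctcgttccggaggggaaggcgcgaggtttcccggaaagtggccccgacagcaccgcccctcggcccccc
Icosl: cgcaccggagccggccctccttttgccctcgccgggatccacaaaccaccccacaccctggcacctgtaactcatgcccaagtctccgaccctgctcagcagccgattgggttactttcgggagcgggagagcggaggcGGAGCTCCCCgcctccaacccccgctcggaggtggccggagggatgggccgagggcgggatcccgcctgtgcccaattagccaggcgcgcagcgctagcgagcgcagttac
Pdcd1lg2: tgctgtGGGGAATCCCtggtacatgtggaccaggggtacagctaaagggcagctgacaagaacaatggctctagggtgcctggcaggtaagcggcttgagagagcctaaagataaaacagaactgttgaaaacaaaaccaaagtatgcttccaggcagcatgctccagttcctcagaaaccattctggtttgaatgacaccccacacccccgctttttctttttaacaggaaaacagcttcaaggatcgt
Cd274: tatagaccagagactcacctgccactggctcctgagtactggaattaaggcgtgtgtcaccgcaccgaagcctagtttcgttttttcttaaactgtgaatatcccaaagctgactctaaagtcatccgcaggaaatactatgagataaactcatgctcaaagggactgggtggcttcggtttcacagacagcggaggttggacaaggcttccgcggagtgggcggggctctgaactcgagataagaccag
Icam1 held GGAAATTCC with its first base at -153 from the start site. The shorter form was searched for after the sequence had been seen, and 0.813% of 32851 promoters of the same length held it. Icosl held GGAGCTCCCC at -111 and Pdcd1lg2 held GGGGAATCCC at -244, both matches to the NF-kB consensus, which was found in 7.25% of the promoters. The other motifs searched, on both strands, were the interferon-stimulated response element (ISRE), AP-1 (TGANTCA) and the STAT element TTCNNNGAA, which were held by 2.98%, 6.75% and 7.02% of the promoters. A match to the STAT element, TTCCCGGAA, lay at -42 of Icam1, and TGATTCA lay at -42 of Cd80. None of these motifs, nor TATAAA on the plus strand, was found in the window of Cd274. G and C made up 65.2% of the window of Icam1, 68.8% of that of Icosl, 52.8% of that of Cd80, 50.4% of that of Cd274 and 48.4% of that of Pdcd1lg2.

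The probe used for each gene was that with the highest mean signal, and its position is given by the files on build mm8. These were chr2:164762006-164762065 for Cd40, chr16:38393393-38393452 for Cd80, chr13:43813879-43813938 for Cd83 and chr16:36534534-36534593 for Cd86. The others were chr19:29453870-29453929 for Cd274, chr19:29536533-29536592 for Pdcd1lg2, chr10:77482595-77482654 for Icosl and chr9:20779144-20779203 for Icam1. No annotation of mm8 was used here, so that the exon in which a probe lies is not given. The probes of Cd274 and Pdcd1lg2 are 82.6 kb apart, and the RefSeq gene table places no gene between the pair. The probes of Cd40 and Icam1 were printed as 10 spots each on every array, with a median standard deviation among spots of 0.09 and 0.15 on the log2 scale.

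In the 24 channels, 57.4% to 65.0% of probes were well above background, and the number of arrays limits the precision. All 10 measured macrophage markers were well above background in EPM and BMDM, and all 10 B cell markers in B cells. The lists did not separate the cells fully, since 6 to 8 of the B cell markers were detected in EPM and 6 to 7 in BMDM, and 5 to 6 of the macrophage markers in B cells. The T cell markers of the list, 10 in number, had 4 to 7 detected in each condition. Of 8 dendritic cell markers, 4 or 5 were detected, and Cd209a, Clec9a and Siglech were not well above background in any channel. Since each array carried a single condition and each slide a single cell type, differences between arrays cannot be told apart from those between conditions, nor slide from cell type, and the p-values measure the spread between the 2 channels of an array. In addition, the labels of B cells were in conflict. In the authors' normalized table, 4 columns are named for KLA 1 h or DMSO 12 h of B cells. They were compared with the scanner data after each probe's mean over the B cell channels had been subtracted from both. These deviations correlated across probes with those of the counterpart condition (r = 0.964 or higher). With the scanner channel that shares the name of the column, they correlated negatively (r = -0.681 or lower). Names from the scanner files are used here, and results on the members that rest on these 2 arrays are given also with the labels exchanged. Bulk RNA cannot tell a higher level per cell from a larger share of cells that express a gene. Values are normalized log2 intensities, and a difference of 1 on this scale is a 2-fold change.

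**Figure D1:**
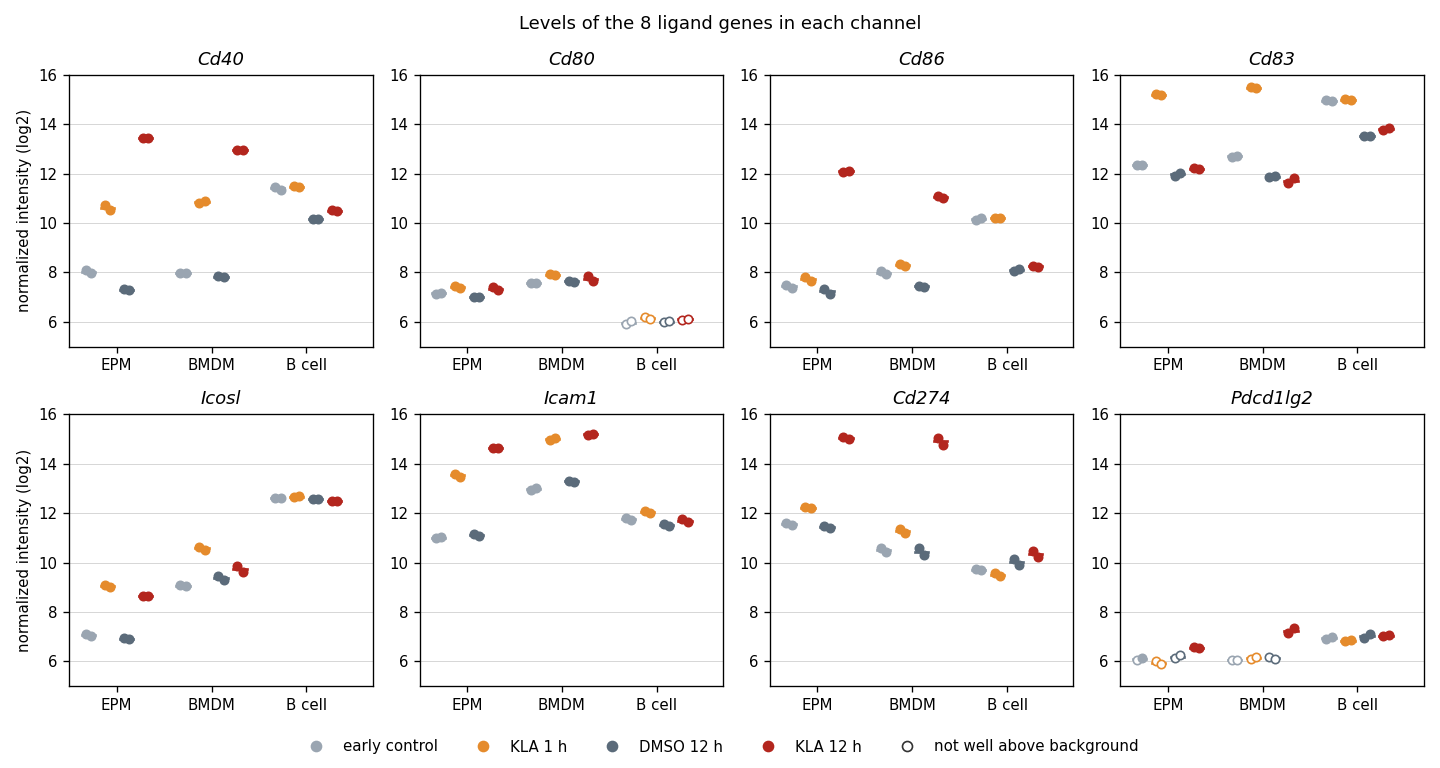
Normalized intensity (log2) of the 8 genes in EPM, BMDM and B cells, with 1 point per channel and a line at the mean of the 2 replicates; open points were not well above background. Cd40 reached 13.46 in EPM after 12 h of KLA from a 12 h control of 7.29 to 7.31, whereas the B cell points of Icosl stayed between 12.49 and 12.69.

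Before stimulation, the 3 cell types differed in which ligands they expressed, and B cells had the highest early levels of Icosl, Cd40, Cd83 and Cd86. Between early controls, 8 of 8 members differed between EPM and B cells (2 higher in EPM, 6 lower), beside 77.2% of all genes tested. BMDM differed from B cells in 8 of 8 (3 higher, 5 lower), beside 76.6% of all genes. EPM and BMDM differed in 6 of 8 (1 higher in EPM, 5 lower), beside 57.8%. Shares of this size are near the background, so that the sizes rather than the counts describe the members. All differences were tested with limma and adjusted over all genes.

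On the probes used, Icosl had the widest range of basal levels. Its early controls were at 7.11 and 7.01 in EPM, 9.10 and 9.04 in BMDM, and 12.62 and 12.61 in B cells, so that no channel overlapped between cell types. B cells exceeded EPM by 5.55 ± 0.07 (difference in log2 ± SE, adjusted p = 1.01e-21), and BMDM exceeded EPM by 2.01 ± 0.07. The 12 h controls kept this order, at means of 6.93, 9.38 and 12.56. The second Icosl probe was not well above background in any macrophage channel. Its early means were 5.84 in EPM, 5.92 in BMDM and 6.78 in B cells, and these basal differences were not tested.

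Cd40 was high in B cells, in which it receives help from T cells, and lower in resting macrophages. The untreated B cells were at 11.47 and 11.33, against 8.08 and 7.99 in EPM and 7.97 and 7.99 in BMDM. The difference between the 2 macrophage types did not pass the test (0.06, 95% confidence interval -0.08 to 0.19). Cd86 was also highest in B cells, with 10.13 and 10.21 in B cells, 8.06 and 7.93 in BMDM and 7.51 and 7.36 in EPM. Cd83 was likewise highest in B cells, at 14.98 and 14.93, against 12.68 and 12.72 in BMDM and 12.33 in both EPM channels. BMDM exceeded EPM by 0.56 ± 0.08 for Cd86 and by 0.37 ± 0.06 for Cd83. With the mean of each array as 1 sample neither of these passed (adjusted p = 0.764 and 0.897), and in 12 h controls the difference was 0.20 for Cd86 and did not pass for Cd83 (-0.08). The excess of B cells in Cd86 was 2.73 over EPM and 2.18 over BMDM in early controls. With array means, which again took early and 12 h controls together, it did not pass (adjusted p = 0.0753 and 0.14). The B cell DMSO 12 h array among these has its label in conflict. In 12 h controls alone, the excess was 0.87 and 0.67, or 2.97 and 2.77 with the B cell labels exchanged. The second Cd86 probe set the macrophage types further apart, with early means of 7.16 in EPM, 8.60 in BMDM and 10.62 in B cells. Its 12 h controls were at 6.70, 7.75 and 8.77 (10.49 in B cells with the labels exchanged). Basal differences on that probe were not tested.

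Cd80 was the member that B cells did not measurably express. None of the 8 B cell channels, at 5.92 to 6.21, was well above background, whereas all macrophage channels were. In early controls, EPM (7.14 and 7.18) were at least 2.09-fold and BMDM (7.56 and 7.59) at least 2.79-fold above B cells. These folds are lower bounds, because B cells were taken no lower than the dimmest signal that counted as detected. For Pdcd1lg2 the order was turned: all 8 B cell channels were well above background, at 6.81 to 7.10, whereas 1 of the 4 early control channels of macrophages was. B cells exceeded BMDM at least 1.84-fold.

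Icam1 and Cd274, like Cd80, had their highest basal level in a macrophage. Icam1 was highest in BMDM, at 12.92 and 13.03, then in B cells at 11.82 and 11.72, and lowest in EPM at 11 and 11.02. BMDM exceeded EPM by 1.97 ± 0.06, and B cells exceeded EPM by 0.76 ± 0.06. Cd274 was highest in EPM, at 11.61 and 11.54, followed by BMDM at 10.61 and 10.45 and B cells at 9.74 and 9.70. It was the 1 member of the 8 that was higher in EPM than in BMDM, by 1.04 ± 0.11.

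After 1 h of KLA, both types of macrophages had raised the same 7 members, whereas Pdcd1lg2 did not pass the test in either. In EPM 7 of 8 members were higher and none lower, beside 9.39% of all genes higher and 19.7% lower, and in BMDM 7 of 8 were higher and none lower, beside 11% higher and 17.6% lower. Of these, 3 were called higher by at least 4-fold in each type (Cd40, Cd83 and Icam1), beside 0.588% of all genes in EPM and 0.554% in BMDM. The median difference of the members was 1.32 in EPM and 1.12 in BMDM, beside -0.05 and -0.03 over all genes. Cd83 belongs to the early genes that the study selected on arrays of EPM, so that its rise in EPM is not independent of that choice.

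Cd83 had the largest rise of the 8 members in EPM. Its channels went from 12.33 and 12.33 to 15.22 and 15.18, a difference of 2.87 ± 0.06 (7.31-fold, adjusted p = 1.06e-16). In BMDM they went from 12.68 and 12.72 to 15.50 and 15.45, or 2.78 ± 0.06 (6.86-fold). Both macrophages thus reached and passed the level of untreated B cells.

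Cd40 rose from 8.08 and 7.99 to 10.72 and 10.51 in EPM, by 2.58 ± 0.07 (5.98-fold, adjusted p = 8.1e-16). In BMDM it rose from 7.97 and 7.99 to 10.82 and 10.91, by 2.89 ± 0.07 (7.40-fold). The BMDM response was the larger by 0.31 ± 0.09 (adjusted p = 0.0454). This difference did not pass with an offset of 16 (adjusted p = 0.081) or on the processed signal (adjusted p = 0.148). The 1 h control was untreated cells in EPM and DMSO in BMDM, so that kind of control and cell type cannot be told apart here.

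The adhesion ligand Icam1 rose from 11 and 11.02 to 13.59 and 13.48 in EPM, by 2.52 ± 0.06 (5.75-fold, adjusted p = 5.24e-16). Starting from the higher level of 12.92 and 13.03, BMDM reached 14.95 and 15.04, a rise of 2.02 ± 0.06 (4.07-fold). The second Icam1 probe, at a lower signal, differed by 2.31 and 1.95. Icosl rose from 7.11 and 7.01 to 9.10 and 9.0 in EPM, by 1.99 ± 0.07 (3.98-fold), and from 9.10 and 9.04 to 10.64 and 10.52 in BMDM, by 1.51 ± 0.07 (2.85-fold). For both genes the control and KLA channels did not overlap. The EPM response was the larger, by 0.50 ± 0.09 for Icam1 and 0.48 ± 0.10 for Icosl, again with controls that differed in kind. After KLA, EPM thus reached for Icosl the level at which BMDM began.

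Cd80, Cd86 and Cd274 changed less within 1 h. Cd274 rose by 0.65 ± 0.11 in EPM, from 11.61 and 11.54 to 12.25 and 12.20, and by 0.74 ± 0.11 in BMDM, from 10.61 and 10.45 to 11.35 and 11.20. Cd80 and Cd86 differed by 0.26 and 0.28 in EPM and by 0.34 and 0.31 in BMDM, with adjusted p between 0.000502 and 0.00894. These small differences depended on the processing. Those of Cd80 did not pass on the processed signal (adjusted p = 0.392 in EPM and 0.382 in BMDM) nor, in EPM, without KLA 1 h replicate 1 (0.21, adjusted p = 0.0701). Those of Cd86 did not pass in the authors' table (adjusted p = 0.0527 and 0.0544), and in BMDM not on the processed signal (adjusted p = 0.0903) or without DMSO 1 h replicate 2 (adjusted p = 0.0592). In EPM, Cd86 was lost without KLA 1 h replicate 1 (adjusted p = 0.141) or untreated replicate 2 (adjusted p = 0.124), and its second probe gave 0.16 (adjusted p = 0.0862). All KLA channels of these lay above their controls. The values of Pdcd1lg2 were -0.14 ± 0.08 in EPM and 0.07 ± 0.08 in BMDM, with none of the KLA channels well above background.

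A stricter reading took the mean of each array as 1 sample, with both control arrays of a cell type as replicates, so that the spread included the difference between the early and the 12 h control. By it, 2 members passed in EPM at 1 h, Icosl (adjusted p = 0.0154) and Icam1 (adjusted p = 0.0131), and 1 in BMDM, Icam1 (adjusted p = 0.0343). The differences of Cd40 and Cd83 then lay between 2.95 and 3.19, with adjusted p between 0.135 and 0.181.

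**Figure D2:**
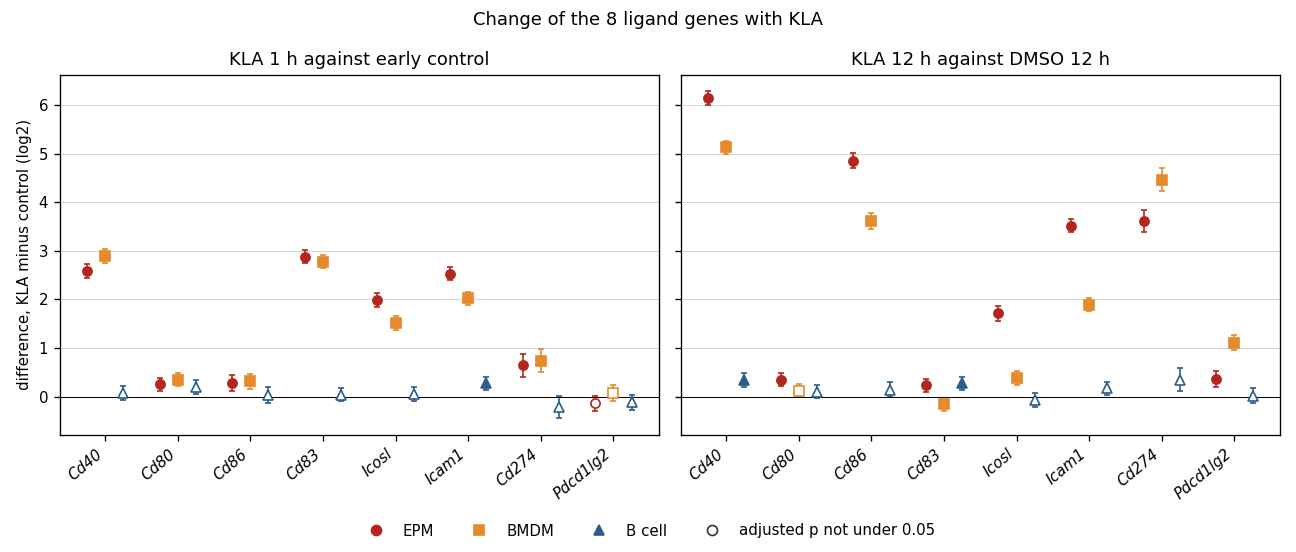
Difference between KLA and control (log2) for the 8 genes in EPM, BMDM and B cells at 1 h (left) and 12 h (right), with bars for the 95% confidence interval from the limma fit; open symbols have an adjusted p that is not under 0.05, and Pdcd1lg2 in macrophages and Cd80 in B cells include groups not well above background. At 1 h Cd40, Cd83, Icosl and Icam1 lie between 1.51 and 2.89 in macrophages, and at 12 h Cd83 is back near 0 while Cd40, Cd86 and Cd274 lie between 3.62 and 6.15.

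At 12 h Cd40, Cd86 and Cd274 were raised by at least 4-fold in both macrophage types, as was Icam1 in EPM and, on its second probe alone, in BMDM, and Cd83 was near its control. In EPM 8 of 8 members were higher than in the 12 h control, beside 19.6% of all genes. In BMDM 6 of 8 were higher, beside 28.6% of all genes, and 1 was lower (Cd83), beside 36.3% of all genes lower. Higher by at least 4-fold were 4 members in EPM (Cd40, Cd86, Cd274 and Icam1), beside 2.08% of all genes, and 3 in BMDM (Cd40, Cd86 and Cd274), beside 2.09%. The median difference of the members was 2.62 in EPM and 1.5 in BMDM, beside -0.06 and -0.03 over all genes. Cd86 belongs to the late genes that the study selected on arrays of EPM, and its rise in EPM is not independent of that choice. With the mean of each array as 1 sample, 5 members passed in EPM (Cd40, Cd86, Cd274, Icosl and Icam1) and 5 in BMDM (Cd40, Cd86, Cd274, Pdcd1lg2 and Icam1).

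Cd40 had the largest change of all members. In EPM its 12 h controls were at 7.31 and 7.29 and its KLA channels at 13.46 and 13.45, a difference of 6.15 ± 0.07 (71.0-fold, adjusted p = 1.34e-21), which ranked 33 among the 17340 genes tested. In BMDM it went from 7.86 and 7.81 to 12.97 and 12.95, by 5.13 ± 0.07 (35-fold), rank 38. Macrophages that had begun 3.37 (EPM) and 3.42 (BMDM) below untreated B cells were by then above every B cell channel.

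The costimulatory ligand Cd86 had risen by 0.28 in EPM at 1 h and rose by 4.86 ± 0.08 at 12 h (29.1-fold), from 7.34 and 7.13 to 12.08 and 12.11. In BMDM it rose by 3.62 ± 0.08 (12.3-fold), from 7.46 and 7.41 to 11.11 and 11.01. The second Cd86 probe gave smaller differences, 3.40 in EPM and 2.31 in BMDM. Its paralogue Cd80, which binds the same receptors, stayed within a narrow band. Cd80 went from 6.99 in both channels to 7.39 and 7.30 in EPM, by 0.35 ± 0.06 (adjusted p = 0.000138). In BMDM it went from 7.67 and 7.60 to 7.85 and 7.65, where the channels overlapped and the difference of 0.12 ± 0.06 did not pass (adjusted p = 0.112). The Cd80 signal was low, and at low signal the offset shrinks differences. On the processed signal the EPM difference of Cd80 was 0.50 and did not pass (adjusted p = 0.195).

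Among the PD-1 ligands, Cd274 changed late and strongly. EPM went from 11.48 and 11.40 to 15.10 and 15.02, a rise of 3.62 ± 0.11 (12.3-fold, adjusted p = 3.11e-15). BMDM, which had begun lower, went from 10.59 and 10.29 to 15.06 and 14.76, by 4.47 ± 0.11 (22.1-fold), so that the KLA channels of the 2 macrophage types overlapped. Its neighbour Pdcd1lg2 became detectable at the same time. None of the 12 h control channels of macrophages was well above background, and all 4 KLA channels were, at 6.57 and 6.54 in EPM and at 7.14 and 7.35 in BMDM. The rise was at least 1.29-fold in EPM (adjusted p = 0.000515) and at least 2.15-fold in BMDM (adjusted p = 3.23e-10). A second probe under the name Cd274, from the transcript AK035678 and with its coordinates in the opposite order to the first, was not well above background in both replicates of any condition and was not used.

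Cd83, the largest rise at 1 h in EPM, was at 12.22 and 12.18 after 12 h of KLA, against 11.91 and 12.02 in the control, a difference of 0.24 ± 0.06 (adjusted p = 0.00389) that was lost without DMSO 12 h replicate 1 (0.18, adjusted p = 0.0599). In BMDM it was slightly lower with KLA, at 11.61 and 11.83 against 11.85 and 11.90, by -0.16 ± 0.06 (adjusted p = 0.0352). The BMDM call was lost with an offset of 16 (adjusted p = 0.0661), in the authors' table (adjusted p = 0.777), when BMDM was fitted alone (adjusted p = 0.107), and without KLA 12 h replicate 1 (-0.05, adjusted p = 0.548), DMSO 12 h replicate 1 (adjusted p = 0.0538) or DMSO 12 h replicate 2 (adjusted p = 0.164). The response at 12 h was smaller than at 1 h by 2.63 ± 0.09 in EPM and by 2.94 ± 0.09 in BMDM.

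Icam1 was raised in both macrophage types at 12 h. EPM went from 11.14 and 11.07 to 14.63 in both channels, a difference of 3.52 ± 0.06 (11.5-fold, adjusted p = 9.17e-19), 1.00 ± 0.09 above the response at 1 h. BMDM went from 13.32 and 13.28 to 15.17 and 15.21, by 1.89 ± 0.06 (3.70-fold), and the change from the response at 1 h was -0.14 (95% confidence interval -0.32 to 0.05). On the second Icam1 probe the 12 h differences were 3.72 in EPM and 2.30 in BMDM, and there the response in BMDM was larger at 12 h than at 1 h, by 0.36 ± 0.10 (adjusted p = 0.00636 over all probes), as it was in EPM (1.41 ± 0.10), so that the 2 probes differ on whether Icam1 rose further in BMDM. Icosl kept most of its rise in EPM, with 6.94 and 6.91 in the control and 8.64 in both KLA channels (1.71 ± 0.07). In BMDM the rise had fallen back to 0.38 ± 0.07, with 9.44 and 9.31 in the control and 9.87 and 9.64 after KLA, and this call was lost without normalization between arrays (0.08, adjusted p = 0.32). The difference between responses at 12 h and 1 h in BMDM was -1.13 ± 0.10. The second Icosl probe, near background in macrophages, gave differences of 0.00 in EPM and 0.01 in BMDM at 12 h.

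The response changed between 1 h and 12 h for 7 of 8 members in EPM (5 larger at 12 h, 2 smaller), beside 43.7% of all genes, for 7 of 8 in BMDM (4 larger, 3 smaller), beside 54.4%, and for 1 of 8 in B cells, beside 7.55%. These counts include Pdcd1lg2 in both macrophage types, for which no size is given since groups in the comparison were not well above background. The member in B cells was Cd274 (0.56 ± 0.16, adjusted p = 0.0381), with neither of its own B cell responses past the test (-0.21 at 1 h and 0.35 at 12 h).

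The 1 h response differed between EPM and BMDM in 3 of 8 members, beside 9.56% of all genes, with controls of different kind (untreated and DMSO). The 12 h response differed in all 8 members, beside 47.8% of all genes. For Pdcd1lg2, whose 12 h controls were not well above background in either type, this sets one lower bound against another, and no size is given. The response at 12 h was larger in EPM for Icam1 (1.64 ± 0.09), Icosl (1.33 ± 0.10), Cd86 (1.24 ± 0.11), Cd40 (1.02 ± 0.09), Cd83 (0.40 ± 0.09) and Cd80 (0.23 ± 0.09). It was larger in BMDM for Cd274, by 0.85 ± 0.16. Cd80 passed narrowly (adjusted p = 0.045) and was lost with an offset of 16 (adjusted p = 0.0504) and with quantile normalization (adjusted p = 0.0549). It was also lost on the processed signal (adjusted p = 0.577) and without EPM DMSO 12 h replicate 1 or 2, EPM KLA 12 h replicate 1, BMDM DMSO 12 h replicate 1 or BMDM KLA 12 h replicate 2 (adjusted p from 0.0851 to 0.258). With the mean of each array as 1 sample none of the 8 passed, with adjusted p from 0.0988 (Icam1) to 0.838.

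**Figure D3:**
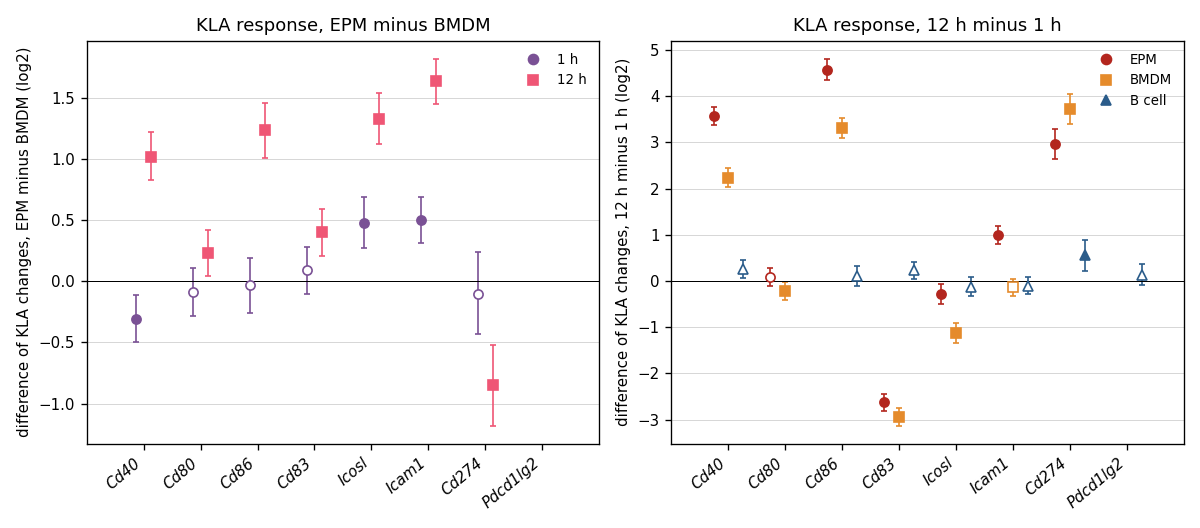
Differences between KLA responses (log2) for the 8 genes, with EPM minus BMDM at 1 h and 12 h on the left and 12 h minus 1 h in each cell type on the right; bars show the 95% confidence interval from the limma fit, and open symbols have an adjusted p that is not under 0.05, and values that use a group not well above background (Pdcd1lg2 in macrophages, Cd80 in B cells) are left out. Icam1 and Icosl have the largest values in favour of EPM at 12 h (1.64 and 1.33), Cd274 lies below 0, and Cd83 is the member whose response fell most from 1 h to 12 h.

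Over the 12 condition means, the members did not follow a single pattern. Pearson's r between condition means was 0.88 for Cd40 and Cd86, 0.72 for Cd80 and Icam1, and 0.67 for Cd274 and Icam1, and it was -0.46 for Cd83 and Cd274 and -0.67 for Cd80 and Icosl. These are descriptions over conditions that share slides and cell types. The gene most like Cd40 among all tested was Traf1, an adaptor of TNF receptors (r = 0.977 over 12 conditions), followed by Gbp3 (0.954) and Jak2 (0.950). Tank (0.975) and Tnip1 (0.966), both regulators of NF-kB signalling, were among the 3 genes most like Icam1. Jmjd3 (0.962) and Ier2 (0.944), an immediate early gene, were among those most like Cd83. For Cd274 these included Ptges (0.978), a prostaglandin E synthase, and Psmd10 (0.977), and for Cd86 they included Psme1 (0.964), a subunit of the proteasome activator. Lcp2 (0.988) was most like Cd80, Amica1 (0.983) was among those most like Pdcd1lg2, and Slc4a7 (0.987) was among those most like Icosl. Pdcd1lg2 was near background in all macrophage conditions but KLA 12 h, and Cd80 in all B cell conditions, which limits their r.

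B cells, labelled as in the scanner files, changed little. At 1 h, 1 of 8 members was higher and none lower, beside 2.72% of all genes higher and 2.45% lower. This was Icam1, at 12.07 and 12.00 against 11.82 and 11.72 in untreated cells, or 0.27 ± 0.06 (adjusted p = 0.0178). At 12 h 2 of 8 were higher, beside 2.81% of all genes: Cd40, at 10.53 and 10.47 against 10.17 and 10.15, by 0.34 ± 0.07 (adjusted p = 0.00332), and Cd83, at 13.76 and 13.83 against 13.51 and 13.54, by 0.27 ± 0.06 (adjusted p = 0.0165). The call of Icam1 was lost without untreated replicate 2 (adjusted p = 0.149), KLA 1 h replicate 1 (adjusted p = 0.173) or KLA 1 h replicate 2 (adjusted p = 0.0513), and that of Cd40 without KLA 12 h replicate 1 (adjusted p = 0.0501). The call of Cd83 was lost without DMSO 12 h replicate 1 (adjusted p = 0.105), DMSO 12 h replicate 2 (adjusted p = 0.0731) or KLA 12 h replicate 2 (adjusted p = 0.125).

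With the labels of KLA 1 h and DMSO 12 h exchanged, the 1 h differences were -2.07 for Cd86, -1.43 for Cd83, -1.24 for Cd40, -0.23 for Icam1 and 0.29 for Cd274, and at 12 h they were -1.96 for Cd86, -1.21 for Cd83, -0.97 for Cd40, -0.33 for Icam1 and 0.85 for Cd274. As labelled, these differences at 1 h instead lay between the untreated cells and DMSO 12 h, where time, solvent and array cannot be told apart. Between those conditions 5 of 8 members differed (4 lower and 1 higher), beside 47.4% of all genes. Without the 2 arrays in conflict, untreated B cells and B cells after 12 h of KLA remain. Between these, Cd86 went from 10.13 and 10.21 to 8.27 and 8.22, Cd83 from 14.98 and 14.93 to 13.76 and 13.83, and Cd40 from 11.47 and 11.33 to 10.53 and 10.47, whereas Icosl was at 12.62 and 12.61 and then 12.49 in both channels. In macrophages, DMSO 12 h also differed from the early control for some members. In EPM 2 of 8 changed (Cd40 by -0.73 ± 0.07 and Cd83 by -0.37 ± 0.06), beside 19.1% of all genes. In BMDM 4 of 8 changed, beside 23.2%, namely Cd83 (-0.82 ± 0.06), Cd86 (-0.56 ± 0.08), Icam1 (0.33 ± 0.06) and Icosl (0.31 ± 0.07).

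Other costimulatory and checkpoint ligands, a list of 21 names of which 18 were tested, divided in the same comparisons. In EPM, 7 rose and 2 fell within 1 h, whereas 11 rose and 4 fell by 12 h. In BMDM, 8 rose and 1 fell within 1 h, whereas 12 rose and 4 fell by 12 h. Over all genes, 9.39% were higher and 19.7% lower in EPM at 1 h, and 11% and 17.6% in BMDM. At 12 h, 19.6% were higher and 34.3% lower in EPM, and 28.6% and 36.3% in BMDM. The counts of the lists below stand beside the shares of the same time. Tnfsf9, the ligand of 4-1BB, rose from a mean of 6.31 to 12.38 in EPM (6.07 ± 0.07, adjusted p = 1.79e-20) and from 6.96 to 11.76 in BMDM (4.80 ± 0.07). At 12 h Slamf7 differed by 2.83 in EPM and 3.85 in BMDM, and Lgals9, which encodes galectin-9, by 3.01 and 2.48. The inhibitory ligand VISTA, listed as 4632428N05Rik, fell at 12 h from 12.60 to 9.87 in EPM (-2.74 ± 0.10) and from 12.34 to 10.89 in BMDM (-1.46 ± 0.10). None of the 18 passed in B cells at either time, whereas with the labels exchanged 7 were higher and 4 lower at 1 h and 7 higher and 2 lower at 12 h, beside 25% and 22.4% of all genes at 1 h and 24.8% and 24.4% at 12 h.

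Of 12 genes of CD40 signalling, 6 were higher and none lower in EPM at 1 h and 11 higher and none lower at 12 h, and in BMDM 7 were higher and 1 lower at 1 h and 10 higher and 1 lower at 12 h. Traf1 rose by 2.94 ± 0.07 and 5.12 ± 0.07 in EPM and by 3.35 ± 0.07 and 4.12 ± 0.07 in BMDM. Tnfaip3, which encodes the NF-kB inhibitor A20, rose by 4.28 ± 0.07 at 1 h and 2.02 ± 0.07 at 12 h in EPM. In B cells, Tnfaip3 (0.57 ± 0.07), Traf1 (0.46 ± 0.07) and Birc3 (0.29 ± 0.08) were higher at 12 h as labelled, and with the labels exchanged they were lower, at -0.43, -0.83 and -0.64. Of 8 tested integrin ligands and adhesion genes, 5 were higher and 1 lower in EPM at 12 h and 6 higher and 1 lower in BMDM, with Vcam1, the ligand of VLA-4, higher by 2.59 ± 0.11 and 2.47 ± 0.11. Among 12 receptors of these ligands, 4 were higher and 5 lower in EPM and 5 higher and 4 lower in BMDM at 12 h. Itgal, the alpha chain of LFA-1, rose by 1.29 ± 0.06 and 1.35 ± 0.06, and Itgax, another integrin chain, fell by 1.63 on the log2 scale in EPM and by 1.09 in BMDM.

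Some markers of other cells differed with KLA at 12 h in macrophages. Of 5 tested dendritic cell markers, 3 were higher in EPM and 4 in BMDM, among them Ccr7 (2.03 ± 0.12 in EPM and 0.59 ± 0.12 in BMDM) and Fscn1 (0.14 ± 0.05 in EPM and 2.06 ± 0.05 in BMDM). Over all 8 dendritic cell markers the summed log2 level was 57.9 in the EPM control and 60.9 with KLA, and 51.2 and 55.5 in BMDM. T cell markers summed to 65.0 and 67.0 in EPM and to 66.8 and 68.0 in BMDM, and neutrophil markers (7 measured) to 44.2 in both EPM conditions and to 51.8 and 53.6 in BMDM. Of 9 tested T cell markers, 3 were higher and 1 lower in each macrophage type (of all genes, 19.6% and 34.3% in EPM and 28.6% and 36.3% in BMDM), and of 7 neutrophil markers 1 was higher and 2 lower in EPM and 4 higher and 1 lower in BMDM. Of 10 macrophage markers, 3 were higher and 4 lower in EPM and 2 higher and 6 lower in BMDM. Their part in the changes of the members was not tested.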

How the data were processed

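RNA of 3 cell types was measured on 12 Agilent 2-colour arrays, with Cy5 and Cy3 each holding a replicate of the same condition (24 channels). The study's methods give another number of replicates than the labels of these arrays, which were followed. The deposited scanner files hold spot intensity, made by the authors with Agilent Feature Extraction 9.5.3.1 per the submitters' processing notes, with probe positions on mm8. Each array was deposited as a pair of identical files (12 of 12), and 1 was used. The authors' table of normalized intensities, put on the log2 scale here, served as an alternative. Its exact normalization is not given in the sources used here, and it lacks Cd40 and the Icam1 probe used here.

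Mean and background signals of all spots were corrected with normexp (offset 50), and controls were dropped. Channels were normalized by loess within and Aquantile between arrays (limma 3.58.1, R 4.3.3). The offset shrinks differences at low signal, so that folds from low controls may be understated. Outlier spots were left out (134 missing values in the genes tested, 0 in the members). Spots of a probe were averaged, and of several probes of a symbol the one with the highest mean was kept. Genes detected (flagged as well above background) in both replicates of 1 condition or more were tested (17347 genes). A linear model with 1 coefficient per condition was fitted to all 24 channels with lmFit and eBayes (12 residual degrees of freedom), and p-values were adjusted by Benjamini-Hochberg, with a threshold of 0.05. Errors are standard errors of this fit. For an undetected group, each channel was set to its probe's value or to the dimmest detected signal of that channel (5.44 to 6.16), whichever was higher, which gives a lower bound of the fold.

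All 8 members are named, with the genes of other lists named as the 3 largest changes in each direction past the threshold, and the 3 genes most like each member by Pearson's r. Members and lists were chosen with earlier results of these data known. On simulated data with 200 changed genes among 17239 (EPM, KLA 1 h), 99 of 100 changes of 2-fold and 100 of 100 of 4-fold were found, as were 6 genes without a change. The simulated noise was the spread between the 2 channels of an array, with no difference between arrays. These numbers therefore do not cover errors from differences between arrays. Replicate 1 is the Cy5 and replicate 2 the Cy3 channel of every array, and the dye difference correlated between arrays (r of 0.27 to 0.63 over 66 pairs), so that a fit with the replicate as a block was run. The other alternatives were the offset, the processed signal, quantile or no normalization between arrays, no detection filter, the mean of probes, cell types fitted alone, array means as samples, a threshold of 0.01, exchanged B cell labels, and leaving out each channel. The exchange for listed genes and for responses against B cells, and the second probes between times, were added after seeing the data.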

Additional observations from a re-analysis of the deposited data

Results flagged for a closer look

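The KLA response of the members differed between cell types or times, by the test of the difference itself in limma, in 50 cases. Of these, 6 use a group not well above background (Pdcd1lg2 in macrophages, Cd80 in B cells) and are not given, and the other 44 follow. Values are differences of log2 differences. Of all genes, the EPM minus BMDM response was called for 9.56% at 1 h and 47.8% at 12 h. The 12 h minus 1 h response was called for 43.7% in EPM, 54.4% in BMDM and 7.55% in B cells. For responses against B cells no share over all genes is given, so that the number of cases there has no background.

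EPM minus BMDM was, at 1 h, with untreated cells and DMSO as the respective controls, -0.31 for Cd40, 0.48 for Icosl and 0.50 for Icam1. At 12 h it was 1.02 for Cd40, 0.23 for Cd80, 0.40 for Cd83, 1.24 for Cd86, -0.85 for Cd274, 1.33 for Icosl and 1.64 for Icam1.

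EPM minus B cells was, at 1 h, 2.51 for Cd40, 2.83 for Cd83, 0.86 for Cd274, 1.94 for Icosl and 2.26 for Icam1. At 12 h it was 5.81 for Cd40, 4.72 for Cd86, 3.27 for Cd274, 1.79 for Icosl and 3.36 for Icam1. BMDM minus B cells at 1 h sets a response over DMSO against a response over untreated cells. It was 2.82 for Cd40, 2.74 for Cd83, 0.95 for Cd274, 1.46 for Icosl and 1.76 for Icam1. At 12 h it was 4.79 for Cd40, -0.43 for Cd83, 3.48 for Cd86, 4.12 for Cd274, 0.46 for Icosl and 1.72 for Icam1. Each of these rests on 1 of the B cell arrays whose labels are in conflict. With the labels exchanged, BMDM minus B cells at 12 h turned to 1.05 for Cd83, and EPM minus B cells at 1 h for Cd274 was 0.36 and did not pass (adjusted p = 0.0751). Cd83 and Cd86 then passed newly in EPM minus B cells, Cd83 at 12 h (1.44) and Cd86 at 1 h (2.35), as did Cd86 in BMDM minus B cells at 1 h (2.38). For the others of these values the direction and the call stayed, with Cd40 between 3.82 and 7.12.

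The response at 12 h minus that at 1 h was, in EPM, 3.57 for Cd40, -2.63 for Cd83, 4.58 for Cd86, 2.97 for Cd274, -0.28 for Icosl and 1.00 for Icam1. In BMDM it was 2.24 for Cd40, -0.22 for Cd80, -2.94 for Cd83, 3.31 for Cd86, 3.72 for Cd274 and -1.13 for Icosl. In B cells it was 0.56 for Cd274.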

How the results depend on the processing

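Over all alternatives, values of single members kept their direction and side of the threshold in 1217 cases, were no longer past it in 81, passed newly in 14 and changed sign in 19. A further 34 values changed sign with no call under either setting. Counts of members stayed within 1.5 times in 228 cases and moved in 36. The cause was not tested. With array means as samples, members higher with KLA numbered 2 in EPM at 1 h, 5 in EPM at 12 h, 1 in BMDM at 1 h and 0 in B cells at 1 h and 12 h, members lower in BMDM at 12 h numbered 0, and the EPM minus BMDM response was called for 0 members at 1 h and 0 at 12 h. In B cells at 12 h Cd40 was then -0.28 and Cd83 -0.45. At a threshold of 0.01, members higher numbered 0 in B cells at 1 h and 1 at 12 h, and 0 were lower in BMDM at 12 h.

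With the B cell labels exchanged, 4 members were lower at 1 h (Cd40 -1.24, Cd83 -1.43, Cd86 -2.07, Icam1 -0.23, with Cd274 at 0.29), beside 22.4% of all genes. At 12 h 5 were lower (among them Cd40 -0.97, Cd83 -1.21, Cd86 -1.96, Icam1 -0.33), beside 24.4% of all genes. For the other alternatives no share over all genes was computed. In the authors' table, lower members numbered 3 in B cells at 1 h (Cd83 -1.54, Cd86 -2.10, Icam1 -0.31, with Cd274 at 0.36) and 3 at 12 h (Cd83 -1.34, Cd86 -1.92, Icam1 -0.34), 0 were lower in BMDM at 12 h, and the EPM minus BMDM response at 1 h was called for 1. Members higher in B cells at 1 h and lower in BMDM at 12 h numbered 0 and 0 with each cell type fitted alone, 0 and 2 without normalization between arrays (Cd80 in BMDM at 12 h was then -0.17), and 2 and 0 with an offset of 16. On the processed signal 1 member was lower in EPM at 1 h (Pdcd1lg2). With the replicate number as a block, which pairs the dyes, 2 members were higher and 1 lower in B cells at 1 h, and no other count of members moved by over 1.5 times. Leaving out 1 channel gave 0 to 1 members higher in B cells at 1 h, 1 to 2 at 12 h, and 0 to 1 lower in BMDM at 12 h. Probes near background, as those of Pdcd1lg2 and of Cd80 in B cells, limit these differences.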
